A study of Mus musculus with 116 samples.

Results

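FI-Delta cells were compared 12 hours after the removal of IL-3 with the same cells at 0 hours. The comparison was made on the 4 arrays whose titles pair FI12h with FI0h, 2 of the 58 dye-swap pairs in the series. They comprise 2 replicates, each hybridised with both dye orders, and all values are given as FI12h over FI0h. FDB1 is a mouse myeloid progenitor line that needs added growth factor: it proliferates in IL-3 and differentiates in GM-CSF. FI-Delta and V449E are mutant GM-CSF receptor subunits, expressed in FDB1 cells, that signal without bound cytokine, the first altered outside the membrane and the second within it. FI-Delta cells grew in mouse IL-3 (500 U/mL) and fetal calf serum (10%), were washed 3 times at 0 hours and were then kept with no added cytokine. The FI0h RNA is from the same mutant-bearing cells in IL-3. Also used here are FI-Delta RNAs at 6, 24, 48 and 72 hours, V449E cells washed and kept without factor in the same way, and parental FDB1 cells moved at 0 hours from IL-3 to 500 U/mL of GM-CSF, called the GM arm. The labels used here do not say whether a mutant line is 1 clone or a pool, how the receptor was expressed, or whether the replicates came from separate cultures. The p-values therefore cover no more than the spread seen between these RNAs, which may be technical.

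The IL-3 and GM-CSF receptors each pair a ligand-specific alpha chain with a shared beta chain. The bound receptor activates JAK2, which feeds STAT5, the RAS-ERK cascade and PI3-kinase. Downstream, Myc drives the making of ribosomes, Atf4 drives amino acid supply, and SREBP factors drive the synthesis of sterols and fatty acids. When growth signals drop, TFEB and related factors induce genes of the lysosome. In myeloid progenitors loss of IL-3 signalling is commonly followed by slower growth, by cell death or, where another signal permits it, by maturation.

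All 4 arrays were of print run 1. Over all probes replicate 2 had the wider spread, with median absolute deviations of 0.177 and 0.175 against 0.115 and 0.13 in replicate 1. Within a replicate the deposited ratios of the dye-swapped arrays correlated at r = -0.297 (replicate 1) and r = -0.452 (replicate 2) over the 21797 probes, against -0.653 to -0.0327 over all 58 dye-swap pairs. The dye-swap averages of the replicates correlated at r = 0.521 across probes, which are not independent replicates. The log base and direction of the deposited ratios are not given in the sources used here; log2 of Cy5 over Cy3 is likely, since limma writes that ratio and the labels put Cy5 in channel 1. Signal intensities were not used. Precision is limited by there being 2 RNAs for each condition, however many arrays each RNA was on. Fitted differences come from the arrays of all 58 pairs, which give each RNA a level on the log2 scale (n = 2 RNAs at each time), and were tested with limma over all probes. The median standard error (SE) of a difference was 0.090. A probe or gene is called where the Benjamini-Hochberg adjusted p is below 0.05.

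Read as Cy5 over Cy3, the ratios put more called probes lower than higher at 12 hours. Of 21797 probes 1102 were called (5.06%), 714 of them lower (3.28%) and 388 higher (1.78%). Were the deposited ratios Cy3 over Cy5, 714 would be higher and 388 lower, and every sign, direction and rank given here would turn. Most differences were small: 14 of the called probes were lower and 4 higher by at least 2-fold. On the 4 direct arrays 1012 of the called probes (91.8%) had the same sign on every array, against 32.1% of all probes. These arrays also entered the fit that made the calls, so the agreement is no separate support. After averaging the probes of a gene, 1025 of 15097 genes were called (6.79%), 655 lower (4.34%) and 370 higher (2.45%), and the median over all genes was 0.011. Each RNA mattered to these totals: the count of called probes was 696 without the replicate 1 RNA of 12 hours, 143 without its replicate 2, 462 without the replicate 1 RNA of 0 hours and 150 without its replicate 2.

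**Figure D1:**
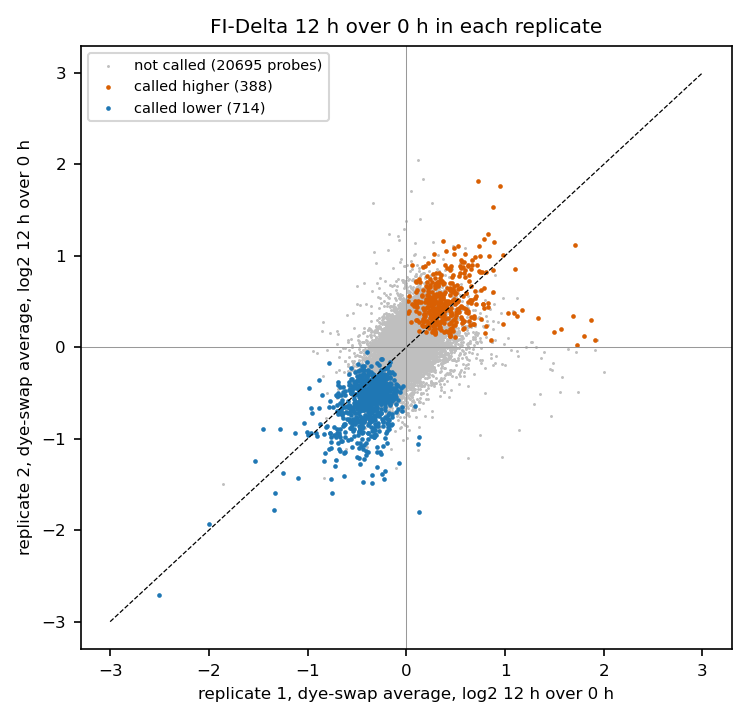
Each point is a probe, with the dye-swap average of replicate 1 on the x axis and of replicate 2 on the y axis, both as log2 of 12 hours over 0 hours; the dashed line marks equal values. The 388 probes called higher (orange) and the 714 called lower (blue) lie mainly in the quadrants where both replicates moved the same way. The calls are from the fit over all arrays, which includes those plotted.

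The 15 highest and 15 lowest called genes with 1 sign on all 4 arrays are described here. For these genes, here and below, agreement in sign follows from that choice and is no support. Array values are given in the order replicate 1 with the 12 hour RNA in Cy5 and in Cy3, then replicate 2 likewise. Tmtc2, a transmembrane protein of the endoplasmic reticulum that takes part in mannose transfer to cadherins, stood at -3.45, -1.56, -2.80 and -2.62. All 4 values were far below 0, the widest spread being between the dye orders of replicate 1. The fit put it at -2.56 ± 0.31 (SE; limma adjusted p = 8.5e-05), the lowest of the named genes. F2r, the thrombin receptor PAR1, stood at -1.29, -1.21, -1.44 and -1.31 and fell by 1.40 ± 0.23. Its 4 arrays lay close together. The secretory vesicle genes Sytl3 (-1.17 ± 0.20) and Rab27b (-1.02 ± 0.25), which are also on the mast cell list, fell as well, as did the cadherin Cdh17 (-1.05 ± 0.19) and the phosphatase Ptpn9 (-0.95 ± 0.12). The interferon-inducible membrane protein Ifitm1 fell by 1.01 ± 0.17. Linker histones H1f5 and H1f3 fell by 0.98 ± 0.25 and 0.96 ± 0.22, with values of -0.60 and -0.11 for H1f5 in replicate 1 against -1.47 and -1.33 in replicate 2. Nop56, Atf4, Yars, Psat1, Myc and Fasn complete the low group and are described with their pathways. 4 probes without a gene symbol were at least as low as the genes named, and none was as high.

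Among the genes that rose, Marco, a scavenger receptor of macrophages, led with 1.84, 1.58, 0.89 and 1.34 on the 4 arrays. Every array was high, replicate 1 more so. The fit gave 1.43 ± 0.33 (2.68-fold; limma adjusted p = 0.0141). Next came 3 carriers of amino acids or peptides. Slc15a3, a lysosomal carrier of histidine and small peptides, stood at 0.67, 0.78, 1.87 and 1.77 and rose by 1.22 ± 0.18. Slc7a9, a light chain of the cystine and dibasic amino acid carrier, stood at 0.93, 0.97, 1.83 and 1.69 and rose by 1.21 ± 0.19. Both were higher in replicate 2 than in replicate 1 with either dye order. The third was Slc7a11, the cystine and glutamate exchanger (1.17 ± 0.18). The transcription factor Cebpd, active in myeloid maturation, rose by 0.89 ± 0.17, the coagulation protease F10 by 0.91 ± 0.17, and Mcemp1, which mast cells and monocytes express, by 0.86 ± 0.21. Olr1, a receptor for oxidised LDL, rose by 0.84 ± 0.19. Gstm3, a glutathione transferase (0.97 ± 0.18), and Fth1, the ferritin heavy chain (0.89 ± 0.24), rose too. The others were Mpp1 (0.96 ± 0.21), a scaffold under the membrane, Grina (0.94 ± 0.12), Klhl24 (0.87 ± 0.14), for which 3 of 3 probes rose, Nxpe4 (0.84 ± 0.13) and Rsrp1 (0.82 ± 0.20). With any 1 of the 4 RNAs of this comparison left out, 17 of the 30 genes stayed called: Slc15a3, Slc7a9, Slc7a11, Gstm3, Grina, F10, Cebpd, Klhl24, Nxpe4, Tmtc2, F2r, Sytl3, Nop56, Cdh17, Psat1, Ptpn9 and Fasn. Of the others, Marco, Mpp1, Fth1 and Olr1 lost the call in each of the 4 omissions, Marco at values from 1.29 to 1.56. Without the replicate 2 RNA of 12 hours Myc (-0.66), Yars (-0.88), Ifitm1 (-0.73) and Atf4 (-1.01) lost it, and Atf4 (-0.82) did so without the replicate 2 RNA of 0 hours too. Rab27b lost it without the replicate 1 RNA of 12 hours (-0.67) and in both omissions at 0 hours, Mcemp1 in all but that of 12 hours replicate 2, and Rsrp1, H1f5 and H1f3 in all but that of 0 hours replicate 1.

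**Figure D2:**
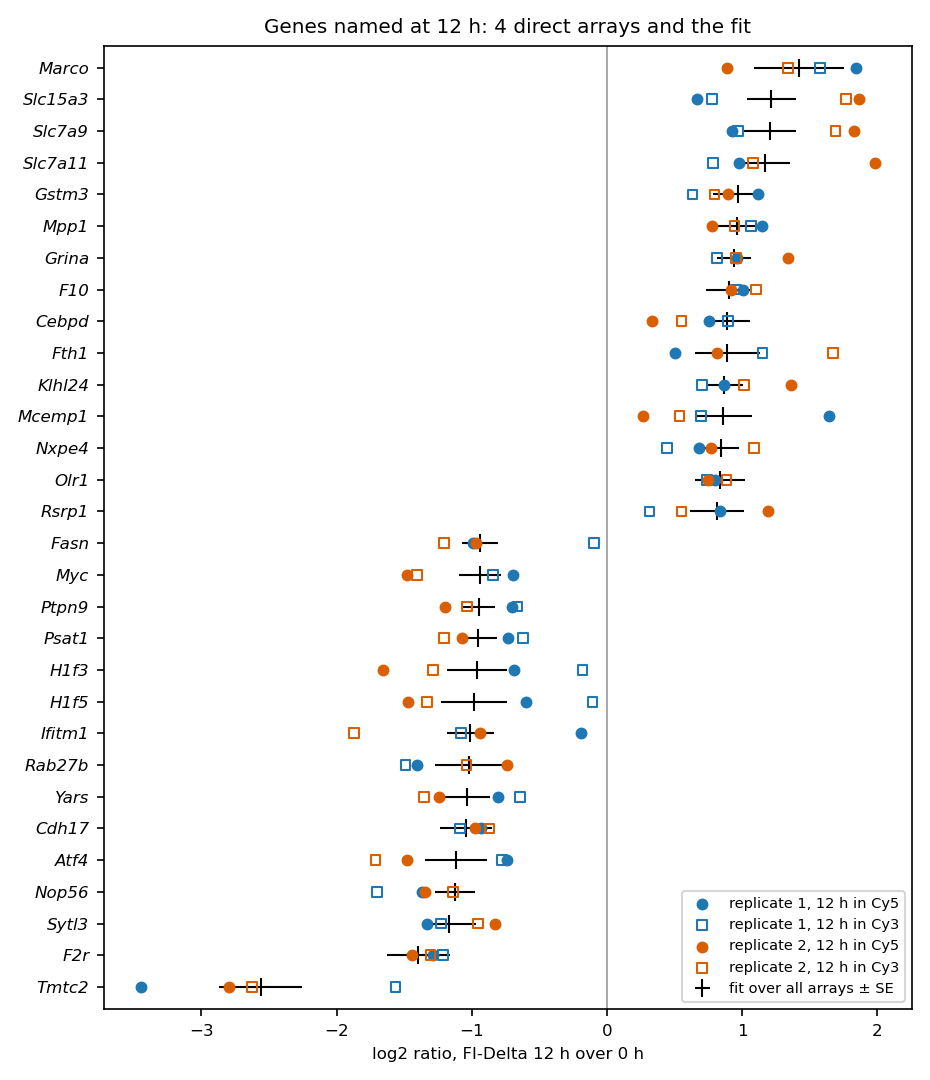
The x axis is the log2 ratio of 12 hours over 0 hours for the 30 named genes (rows); filled circles and open squares are arrays with the 12 hour RNA in Cy5 and Cy3, blue for replicate 1 and orange for replicate 2, and black bars are the fit over all arrays ± SE. By the rule that chose the genes, all 4 arrays of each lie on 1 side of 0. Tmtc2 is lowest at -2.56 while Marco is highest at 1.43.

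Direct targets of the cytokine signal were split. On the STAT5 target list 6 of 21 measured members fell and 1 rose (median -0.10), against 4.34% and 2.45% of all genes. These shares of all genes stand beside every list count of 12 against 0 hours in FI-Delta cells below. Myc stood at -0.69, -0.84, -1.48 and -1.41 and fell by 0.94 ± 0.16 (limma adjusted p = 0.00105). All 4 values were low, and replicate 2 was the lower. The kinase Pim1 (-0.61 ± 0.14), the survival gene Bcl2l1 (-0.55 ± 0.15), the HLH inhibitor Id1 (-0.73 ± 0.20) and the feedback inhibitors Socs1 (-0.67 ± 0.16) and Socs2 (-0.30 ± 0.09) fell. The member that rose was Mcl1, an anti-apoptotic BCL2 relative (0.37 ± 0.10), whose call was lost on omission of any of the 4 RNAs (0.29 to 0.44). Cish, a classical STAT5 target, was at -0.37 ± 0.19 without passing (limma adjusted p = 0.277), and Ccnd2 and Pim2 were at -0.076 and -0.050. The number of members lower was 7, 0, 2 and 1 without the RNA of 12 hours replicate 1, of 12 hours replicate 2, of 0 hours replicate 1 and of 0 hours replicate 2, in that order, and 2 when arrays were scaled to a common spread. The same order is used for such counts below; across these omissions the share of all genes called was 4.36%, 0.854%, 2.83% and 1.19%, and the lone RNA of an arm is assumed to vary like the others. Of 12 ERK feedback genes 2 fell: the ETS factor Etv5 (-0.59 ± 0.13) and Spry4, an inhibitor of RAS signalling (-0.30 ± 0.08). Members lower numbered 2, 0, 0 and 0 on omission, and Spry4 was called in none of the 4 omissions nor on the direct arrays (-0.31, limma adjusted p = 0.0759). Dusp6, the ERK phosphatase, differed between replicates, at 0.21 and 0.036 against -1.19 and -1.05, and was not called (-0.46 ± 0.28). Among 28 immediate early genes 2 rose, Mcl1 and the antiproliferative gene Btg2 (0.40 ± 0.12), in all 7.14% of the list against 6.79% of all genes. No member was called on omission of any of the 4 RNAs, with arrays scaled to a common spread, with print run 1 alone or on the indirect arrays.

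Of the receptor chains themselves, Csf2ra, the alpha chain that binds GM-CSF, stood at 0.84, 0.55, 0.54 and 0.27. It was higher on every array and rose by 0.51 ± 0.15 (limma adjusted p = 0.0478), a call lost on omission of any of the 4 RNAs (0.39 to 0.64). Csf2rb2, the IL-3-specific beta chain of the mouse, stood at -0.066, -0.25, 0.76 and 0.60, so the replicates went opposite ways, and it was not called (0.25 ± 0.23). Il3ra was at 0.090 ± 0.064 without passing. The shared beta chain Csf2rb had no tested probe with it as the 1 gene symbol, so it is not described. On the list of 19 measured myeloid cytokine receptors 3 rose and none fell: Csf2ra and both TNF receptors, Tnfrsf1a (0.70 ± 0.16) and Tnfrsf1b (0.65 ± 0.14). Their number was 1, 1, 1 and 0 on omission of single RNAs. The receptor genes called were 15.8% of their list, against 6.79% of all genes. Below the receptor 4 of 27 genes rose and 2 fell, 22.2% of that list. Stat6, which signals for IL-4 (0.45 ± 0.070), and Ptpn6, the phosphatase SHP-1 that damps cytokine receptors (0.45 ± 0.077), rose, as did the kinases Syk (0.31 ± 0.082) and Tyk2 (0.46 ± 0.13). The adaptor Gab1 (-0.36 ± 0.080) and the PI3-kinase subunit Pik3cg (-0.59 ± 0.15) fell. On omission 2, 1, 2 and 1 were higher and 2, 0, 1 and 0 lower. Jak2 was at -0.30 ± 0.11 and Stat5a at 0.11 ± 0.14, neither called.

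Of the 32 lists examined, that of ribosome biogenesis had the most members that fell. Of its 42 measured genes 26 fell and none rose, 61.9% called against 6.79% of all genes. Its median was -0.37 and its range from -1.12 to 0.052. The list medians of the replicates on the direct arrays were -0.36 and -0.42. Nop56, a core protein of the box C/D particles that methylate ribosomal RNA, stood at -1.37, -1.70, -1.34 and -1.14. It was low on all 4 arrays and fell by 1.12 ± 0.15 (limma adjusted p = 0.000113). Its partner Nop58 stood at -0.85, -0.42, -1.07 and -0.60 and fell by 0.83 ± 0.11. Early processing of the small subunit was represented by Wdr43 (-0.89 ± 0.11) and Utp4 (-0.58 ± 0.071), both of the t-UTP complex, and large subunit assembly by Brix1 (-0.65 ± 0.078) and Ppan (-0.68 ± 0.087). RNA polymerase I subunits Polr1b (-0.63 ± 0.14), Polr1e (-0.34 ± 0.076) and Polr1a (-0.29 ± 0.088) fell, as did the nucleolar proteins Ncl (-0.50 ± 0.091) and Npm1 (-0.42 ± 0.093). The count lower was 22, 9, 18 and 14 on omission of single RNAs, in the order given above. On the Myc network list 6 of 21 fell and none rose: Myc, Ncl, Npm1, the polyamine enzyme Odc1 (-0.73 ± 0.11), the lactate dehydrogenase Ldha (-0.73 ± 0.17) and the G1 kinase Cdk4 (-0.37 ± 0.086). Their number was 6, 1, 5 and 4 on omission. Mxd1, which opposes Myc, was at 0.75 ± 0.23 and just missed the threshold (limma adjusted p = 0.0549). Of 29 chaperone and ER stress genes 6 fell and 1 rose. Those that fell included Hspd1 (-0.81 ± 0.12) and Hspe1 (-0.29 ± 0.079), which together fold proteins in mitochondria, Tcp1 and Cct5 of the cytosolic chaperonin (-0.35 ± 0.072 and -0.38 ± 0.082), Hspa4 (-0.38 ± 0.075) and Xbp1 (-0.49 ± 0.11). Edem1, of ER-associated degradation, rose by 0.35 ± 0.10. Omission of single RNAs left 7, 1, 4 and 3 lower.

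Amino acid supply moved in both directions. On the list of Atf4 and its amino acid targets 14 of 34 measured genes fell and 2 rose (median -0.30). The share called was 47.1%, against 6.79% of all genes. Atf4, the transcription factor of the integrated stress response, stood at -0.74, -0.78, -1.48 and -1.71. Every array was low, those of replicate 2 the lower, and the fit gave -1.12 ± 0.23 (limma adjusted p = 0.00567). Those that fell included 5 enzymes of serine and one-carbon metabolism, grouped here after their values were seen: Psat1 (-0.95 ± 0.14), Psph (-0.75 ± 0.16), Shmt2 (-0.93 ± 0.12), Mthfd1l (-0.65 ± 0.12) and Mthfd2 (-0.53 ± 0.15). Mthfd2 lost the call on omission of any of the 4 RNAs (-0.56 to -0.50) and on the direct arrays (-0.38, limma adjusted p = 0.112). The carriers Slc7a5 (-0.84 ± 0.17) and Slc1a5 (-0.57 ± 0.093), which bring in leucine and glutamine, fell, and so did asparagine synthetase Asns (-0.62 ± 0.14), Got1 (-0.48 ± 0.10), Aldh18a1 of proline synthesis (-0.56 ± 0.12), Stc2 (-0.67 ± 0.12) and the tRNA exporter Xpot (-0.47 ± 0.10). Chac1, which degrades glutathione, was called lower (-0.95 ± 0.24) from replicates that differed: 0.21 and 0.056 in replicate 1 against -1.36 and -2.24 in replicate 2. The members that rose were Slc7a11, at 0.98, 0.79, 1.99 and 1.08 (limma adjusted p = 0.000549), and Atf5, a relative of Atf4, at 0.44, 0.22, 0.35 and 0.55 (0.44 ± 0.11). Both were higher on all 4 arrays. Members lower numbered 13, 3, 10 and 6 and members higher 1 in each case on omission of single RNAs; Atf5 lost the call in each. Of 18 aminoacyl tRNA synthetases and partners, which load tRNAs with amino acids, 9 fell and none rose (median -0.33). This was 50% of the list, against 6.79% of all genes called. Yars stood at -0.81, -0.64, -1.24 and -1.35, low on every array, and fell by 1.04 ± 0.17. Iars (-0.63 ± 0.099), Lars (-0.65 ± 0.14), Aars (-0.58 ± 0.16), Tars (-0.43 ± 0.11), Eprs (-0.41 ± 0.11), Wars (-0.34 ± 0.084), Farsa (-0.33 ± 0.088) and Farsb (-0.35 ± 0.091) made up the rest. The number lower was 4, 2, 4 and 2 on omission, and 3 with arrays scaled to a common spread.

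Promoters of these genes were read because Atf4 with a C/EBP partner binds a composite element whose core letters are TGATGNAA. The RefSeq promoter sequences (GRCm38.p6) were searched on both strands in the 250 bases before each listed start, and 29 of the 34 Atf4 list genes and 12 of the 18 synthetase genes had an entry. The letters stood in 6 of the 29 and 3 of the 12, including the called genes Slc7a11, Chac1, Asns, Got1, Aars and Tars. Of the called genes with an entry they stood in 4 of 14 and 2 of 7. They stood in 3.05% of the 11755 measured genes with an entry. As the first list was made up of Atf4 and its targets, a share above that of measured genes does not bear on the change at 12 hours. Shown are 1 gene that rose (Slc7a11, chr3:50443614-50443863 (minus strand)) and 2 that fell (Asns, chr6:7693210-7693459 (minus strand), and Aars, chr8:111033592-111033841 (plus strand)), 5′ to 3′ on the gene's strand and ending at the base before the start, with each match in capitals.
Slc7a11: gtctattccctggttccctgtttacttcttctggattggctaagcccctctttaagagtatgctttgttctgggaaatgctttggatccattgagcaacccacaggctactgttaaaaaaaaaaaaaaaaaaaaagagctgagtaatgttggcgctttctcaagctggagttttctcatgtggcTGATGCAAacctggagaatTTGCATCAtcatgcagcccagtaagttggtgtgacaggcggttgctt
Asns: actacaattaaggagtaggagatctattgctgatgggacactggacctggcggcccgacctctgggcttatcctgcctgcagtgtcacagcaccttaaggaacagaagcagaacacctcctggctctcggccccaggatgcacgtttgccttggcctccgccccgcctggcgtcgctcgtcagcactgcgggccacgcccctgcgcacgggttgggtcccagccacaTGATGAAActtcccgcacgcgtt
Aars: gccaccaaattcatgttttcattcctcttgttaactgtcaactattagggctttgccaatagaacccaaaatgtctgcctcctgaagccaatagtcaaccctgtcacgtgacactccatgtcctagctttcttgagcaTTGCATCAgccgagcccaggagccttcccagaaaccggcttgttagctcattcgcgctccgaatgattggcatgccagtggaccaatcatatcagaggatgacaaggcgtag
Slc7a11 held 2 matches, 1 on each strand, that begin 66 and 47 bases before the start, Asns 1 match at 23 bases and Aars 1 at 112 bases. The gene that rose and those that fell thus carry the same letters. A match is a description and does not show binding.

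Genes of lipid synthesis were lower in part. On the cholesterol and fatty acid list 8 of 30 genes fell and 1 rose (median -0.33), 30% called against 6.79% of all genes. Fasn, fatty acid synthase, stood at -0.99, -0.096, -0.97 and -1.20, low on 3 arrays and near 0 on the replicate 1 array with the 12 hour RNA in Cy3. It fell by 0.94 ± 0.14 (limma adjusted p = 0.000242). Acaca, which makes its substrate, fell by 0.46 ± 0.089, and the desaturase Scd1 and elongase Elovl6 by 0.55 ± 0.17 and 0.46 ± 0.10. Of the sterol pathway, Cyp51 stood at -0.80, -0.58, -0.34 and -0.66 (-0.74 ± 0.17), and Sqle, the squalene epoxidase, at -0.65, -0.69, -0.56 and -0.67 (-0.63 ± 0.13). Both were low on every array. Idi1 (-0.51 ± 0.15) and the sterol carrier Stard4 (-0.58 ± 0.12) fell too. Abca1, which exports cholesterol from the cell, rose by 0.43 ± 0.12. The count lower was 6, 2, 6 and 1 on omission. On the glycolysis and hypoxia list 2 of 25 fell, Ldha and the lactate carrier Slc16a1 (-0.89 ± 0.12; -0.66, -0.87, -0.96 and -1.11 on the arrays), and none rose; the number was 2, 1, 1 and 2 on omission. Ldha and Slc16a1 were 8% of the list, against 6.79% of all genes called. Gapdh was at -0.057 ± 0.13.

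Cell cycle genes were lower in part. Of 51 genes of G1/S and DNA replication 8 fell and none rose (median -0.17). Of 47 genes of G2/M and mitosis 7 fell and none rose (median -0.25). The shares called were 15.7% and 14.9%, against 6.79% of all genes. Mcm6, of the replicative helicase, stood at -0.57, -0.44, -1.27 and -1.12 and fell by 0.74 ± 0.15, and Mcm3 fell by 0.63 ± 0.14. Both were lower in replicate 2. The clamp loader genes Rfc4 (-0.53 ± 0.11), Rfc5 (-0.49 ± 0.11) and Rfc3 (-0.37 ± 0.11) and the histone chaperone Chaf1b (-0.58 ± 0.16) fell. Of the mitotic genes, Top2a, which untangles chromosomes, fell by 0.63 ± 0.14, the mitotic kinase Cdk1 by 0.46 ± 0.11 and the checkpoint protein Mad2l1 by 0.52 ± 0.12. The replicates differed for G1/S, with direct-array medians of -0.069 and -0.22. Counts lower on omission were 7, 0, 6 and 0 for G1/S and 3, 0, 4 and 0 for G2/M, so neither list kept a called gene without the replicate 2 RNA of either time. They were 5 and 3 with arrays scaled to a common spread, and 12 and 18 on the direct arrays. Among 24 genes of cell cycle exit 2 rose, Btg2 and Gadd45b (0.39 ± 0.11), and 1 fell, E2f4 (-0.28 ± 0.070). None of the list was called on omission of any of the 4 RNAs. The inhibitor Cdkn1b was at -0.025 ± 0.097.

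Of the 32 lists, that of the lysosome had the most members that rose. Of 39 measured members 14 rose and none fell (median 0.28, range -0.11 to 0.76), 35.9% called against 6.79% of all genes. The direct-array medians of the replicates were 0.29 and 0.24. Hexa, a hexosaminidase that degrades gangliosides, stood at 0.33, 0.48, 0.31 and 0.60. All 4 values were above 0, and it rose by 0.45 ± 0.079 (limma adjusted p = 0.00171). Subunits of the proton pump rose: Atp6v1b2 (0.39 ± 0.081), Atp6v0d1 (0.43 ± 0.10) and Atp6ap1 (0.32 ± 0.089). Npc1, which moves cholesterol out of lysosomes, stood at 0.70, 0.23, 1.12 and 0.29 and rose by 0.58 ± 0.14. It was higher on the arrays with the 12 hour RNA in Cy5. Further members that rose were the acid lipase Lipa (0.57 ± 0.17), the ceramidase Asah1 (0.29 ± 0.087), the galactosidase Gla (0.31 ± 0.081), the protease Tpp1 (0.36 ± 0.092), the membrane protein Lamp1 (0.36 ± 0.093), the calcium channel Mcoln1 (0.26 ± 0.080), Cln3 (0.44 ± 0.096), Grn (0.45 ± 0.11) and the autophagy receptor Sqstm1 (0.76 ± 0.21). The count higher was 7, 2, 2 and 3 on omission, and 4 with arrays scaled to a common spread.

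TFEB and its relatives bind the CLEAR element, searched here as TCACGTGA, which contains the E-box CACGTG. It stood in the 250 bases before the start of 6 of 33 lysosome genes with a RefSeq entry, and in 1.41% of the 11755 measured genes. Of the 11 called lysosome genes with an entry 3 held it: Cln3, Gla and Mcoln1. The promoters of Gla (chrX:134601006-134601255 (minus strand)) and Mcoln1 (chr8:3500269-3500518 (plus strand)) are shown as members that rose, in the same layout and build, with CLEAR matches in capitals.
Gla: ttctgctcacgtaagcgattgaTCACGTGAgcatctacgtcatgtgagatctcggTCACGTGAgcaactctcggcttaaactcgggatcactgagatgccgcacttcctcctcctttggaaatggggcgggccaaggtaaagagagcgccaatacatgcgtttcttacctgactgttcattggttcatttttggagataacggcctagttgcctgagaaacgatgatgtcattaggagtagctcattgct
Mcoln1: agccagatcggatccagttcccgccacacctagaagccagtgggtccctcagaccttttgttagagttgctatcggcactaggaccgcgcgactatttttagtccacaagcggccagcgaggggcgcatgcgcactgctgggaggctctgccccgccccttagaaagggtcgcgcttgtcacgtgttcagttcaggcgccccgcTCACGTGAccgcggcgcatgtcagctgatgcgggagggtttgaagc
Gla held 2 matches, beginning 228 and 195 bases before the start, and Mcoln1 1 match at 46 bases. By comparison the E-box CACGTG stood in 2 of 37 ribosome biogenesis promoters and in 8.67% of measured genes, and the STAT letters TTCNNNGAA in 3 of 15 STAT5 target promoters, none of them a called gene, and in 7.7% of measured genes. The sterol element, searched as TCACNCCAC, stood in 0 of 22 promoters of the lipid list and 1.33% of measured genes. Absence says only that these letters are not in this window.

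Some genes of defence against oxidants rose. Of 24 genes 5 rose and none fell (median 0.22): Slc7a11, Fth1, the transcription factor Nfe2l2 (NRF2) that induces such genes (0.24, 0.23, 0.68 and 0.82 on the arrays; 0.57 ± 0.13), catalase Cat (0.35 ± 0.090) and the sulfiredoxin Srxn1 (0.33 ± 0.088). Nfe2l2 was higher in replicate 2. Nqo1, a standard NRF2 target, was at 0.29 ± 0.091 and Hmox1 at 0.38 ± 0.22, neither called. The number called was 3, 1, 3 and 1 on omission, and 2 with arrays scaled to a common spread. The antioxidant response element, searched as TGACNNNGC, stood in 5 of 21 promoters of the list, among called genes that of Nfe2l2, and in 13.2% of measured genes.

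Few markers of myeloid maturation were called at 12 hours, although the medians of the macrophage list (0.20) and the late granule list (0.30) lay above that of all genes (0.011). Of 49 macrophage markers 3 rose and none fell, 6.12% of the list against 6.79% of all genes called: Marco, F10 and the transcription factor Spi1 (PU.1; 0.37 ± 0.096). F10 stood at 1.00, 0.95, 0.92 and 1.11, close together and all high. Ms4a7 (0.47 ± 0.14) and Ms4a6d (0.50 ± 0.16) came next without passing (limma adjusted p = 0.0533 and 0.059). Members called numbered 2, 1, 1 and 1 on omission, 6 without the replicate block, 8 with print run 1 alone and 10 with levels weighted by number of arrays. Of 23 late granule genes of neutrophils none was called. The replicates differed: the direct-array median was 0.44 in replicate 1 and -0.037 in replicate 2. Lcn2, the lipocalin of secondary granules, stood at 1.26, 0.98, 0.005 and -0.078, so replicate 1 was high and replicate 2 was at 0. Of 10 primary granule genes none was called. Ms4a3, of granulocyte progenitors, stood at 1.10 and 0.16 in replicate 1 and at -1.30 and -1.12 in replicate 2, and Mpo, myeloperoxidase, was at 0.12 ± 0.19. Of 6 genes of the phagocyte NADPH oxidase 2 rose, Ncf4 (0.61 ± 0.18) and Rac2 (0.28 ± 0.073). Neither was called on omission of any of the 4 RNAs, nor with arrays scaled to a common spread. Of 15 genes of MHC class II and costimulation 2 fell, H2-DMa (-0.50 ± 0.10) and H2-DMb1 (-0.40 ± 0.11), which load peptides; 1, 0, 0 and 1 were called on omission. H2-Ab1 stood at -0.76 and -1.12 in replicate 1 and at -0.017 and -0.071 in replicate 2. Among 28 cytokine genes Il1rn, the IL-1 receptor antagonist, rose (0.79 ± 0.22), and Tnfsf11, RANKL, stood at -1.82, -1.90, -1.42 and -1.58. It was low on every array and fell by 1.45 ± 0.44, near the threshold (limma adjusted p = 0.049). Il1rn and Tnfsf11 were 7.14% of the list, against 6.79% of all genes called. Neither was called on omission of any of the 4 RNAs, Tnfsf11 at -1.63 to -1.28 (limma adjusted p 0.175 to 0.228). With arrays scaled to a common spread, print run 1 alone or the indirect arrays Tnfsf11 was not called either (limma adjusted p = 0.167, 0.0566 and 0.121). Of 26 mast cell and basophil markers 2 fell, Sytl3 and Rab27b, and the chymase Cma1 rose (0.55 ± 0.14). The called genes were 11.5% of the list, against 6.79% of all genes. Gata2 (-0.34 ± 0.19), Kit (0.29 ± 0.15) and Cpa3 (-0.11 ± 0.24), more defining of that lineage, were not called. On omission 0, 0, 1 and 0 of the mast cell list were higher and 1, 2, 1 and 1 lower. Of 37 progenitor regulators Cebpd, Spi1 and Cd93 (0.60 ± 0.16) rose, and Id1 and Erg (-0.37 ± 0.11) fell; omission left 2, 1, 1 and 1 higher and 1, 0, 0 and 0 lower. Of the progenitor list 13.5% was called, against 6.79% of all genes. In such bulk samples a change in the share of a cell type and a change in RNA per cell cannot be told apart. Markers of other lineages were near 0. No gene was called among 27 lymphoid markers (median -0.011, range -0.18 to 0.40) or 17 fibroblast and endothelial markers (median -0.002, range -0.14 to 0.41). Of 19 erythroid and megakaryocyte markers F2r alone was called, 5.26% of the list against 6.79% of all genes. These are differences, and levels are not given by 2-colour ratios.

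**Figure D3:**
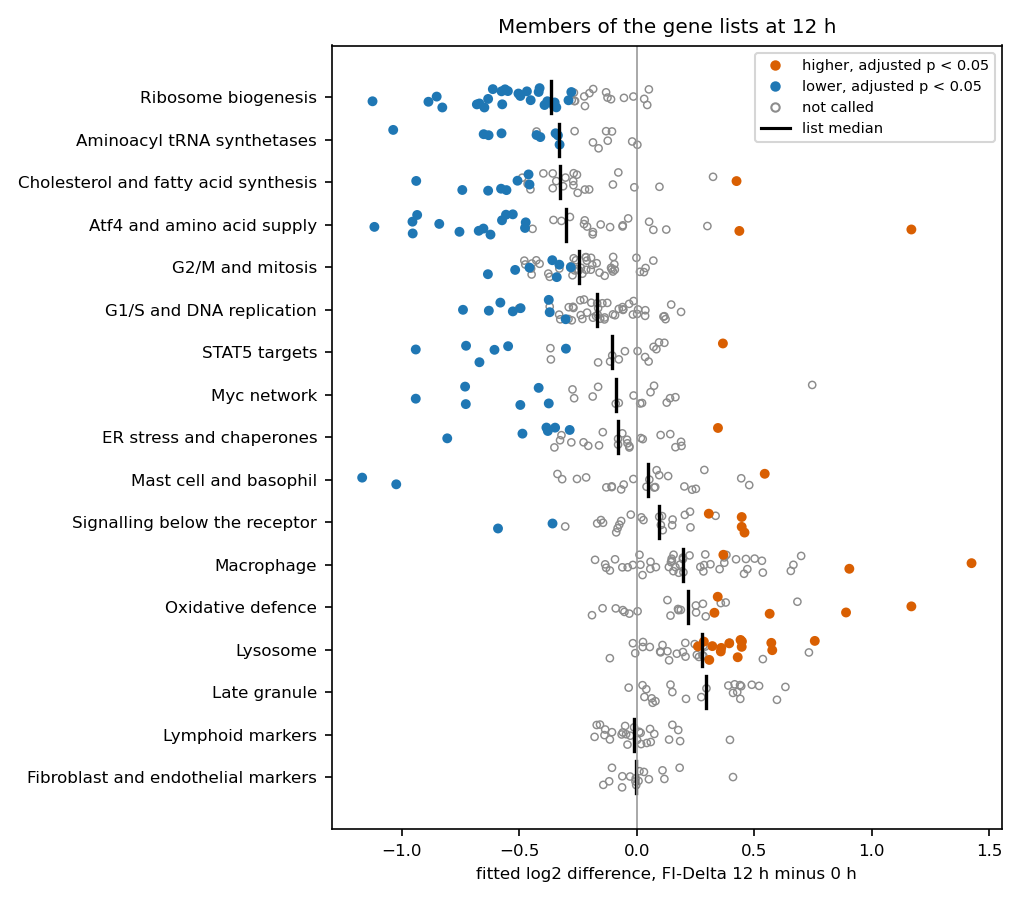
Each point is a measured gene of a list (rows), at its fitted log2 difference of 12 hours minus 0 hours on the x axis; filled points are called (blue lower, orange higher), open ones are not, and black bars are list medians. Ribosome biogenesis has 26 of 42 members called lower and lysosome 14 of 39 called higher, while the lymphoid and fibroblast lists hold no called gene.

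Shares called on the lists of survival and stress were 13.8% (BCL2 family and death), 16.7% (p53 targets) and 17.2% (FOXO targets). Of all genes 6.79% were called, 2.45% higher and 4.34% lower. In the BCL2 family and death list, 3 of 29 fell, Bcl2l1, the BH3 protein Bid (-0.48 ± 0.11) and the initiator caspase Casp8 (-0.41 ± 0.075), and Mcl1 rose. Omission left 3, 0, 1 and 0 lower and none higher. Bcl2l11, the BH3 protein BIM, was at 0.31 ± 0.21 and not called. Of 18 p53 targets 2 rose, Trp53inp1 (0.65 ± 0.12) and Btg2, and the nuclease Aen fell (-0.42 ± 0.093); 1 was higher in each omission and 1, 0, 0 and 1 lower. Of 29 FOXO targets Klhl24 (0.79 ± 0.097, probes averaged), the autophagy gene Map1lc3b (0.46 ± 0.11) and Cat rose, and Cited2 (-0.80 ± 0.20) and Pdk4 (-0.33 ± 0.094) fell, with 3, 1, 1 and 2 higher and 1, 0, 1 and 0 lower on omission. Bnip3, which FOXO factors and hypoxia induce, was at -0.90 ± 0.38 and not called. Of 25 interferon genes B2m rose (0.48 ± 0.13) and the immunoproteasome subunit Psmb8 fell (-0.39 ± 0.10), 8% of the list against 6.79% of all genes called. Omission left none higher and 0, 0, 1 and 0 lower.

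Placed in the time course, 12 hours differed from 6 hours at 85 of 21797 probes (0.39%), 34 higher (0.156%) and 51 lower (0.234%), and without the replicate 2 RNA of 6 hours at none. The count was 258 without the replicate 1 RNA of 6 hours, and 19 and 21 without replicates 1 and 2 of 12 hours. The 6 genes with the largest falls between these times included 2 of sterol synthesis, Cyp51 (-0.85 ± 0.17) and Msmo1 (-0.74 ± 0.16), beside Hnrnpdl (-0.82 ± 0.17), Clic4 (-0.77 ± 0.15), the DNA repair gene Rad18 (-0.76 ± 0.13) and Mdrl (-0.68 ± 0.13). Against 0 hours Cyp51 stood at 0.11 at 6 hours and at -0.74 at 12 hours. The 6 largest rises were Dynll1 (0.86 ± 0.16), Ddx17 (0.67 ± 0.12), Actg1 (0.66 ± 0.12), Prkcb (0.61 ± 0.085), Rogdi (0.59 ± 0.10) and Rnh1 (0.58 ± 0.10). Prkcb, a protein kinase C of myeloid cells, was at 0.003 at 6 hours and at 0.61 at 12 hours. The comparisons with 0 hours share the FI0h RNAs, so their values are given side by side. Slc7a11 stood at 1.76, 1.17 and 0.81 over 0 hours at 6, 12 and 24 hours, Slc15a3 at 1.62, 1.22 and 0.81, and Slc7a9 at 1.71, 1.21 and 0.94, each highest at 6 hours by value. Between 6 and 12 hours none of these differences passed. Myc stood at -0.98, -0.94 and -0.26, and F2r at -0.94, -1.40 and -1.60, reaching -2.63 at 72 hours. Yars was at -0.29 at 6 hours and at -1.04 at 12 hours (difference -0.75, limma adjusted p = 0.0523). Against 0 hours, called probes numbered 158, 1102, 310, 968 and 3326 at 6, 12, 24, 48 and 72 hours, so 12 hours stood above both its neighbours. The ribosome biogenesis list had 9 of 42 members lower at 6 hours (median -0.22), against 0.722% of all genes. It had 2 lower at 24 hours (median -0.11) and 28 at 72 hours (median -0.44), where 106 and 1608 of 15097 genes were lower. The lysosome list had 1 of 39 higher at 6 hours (median 0.076), against 0.497%. It had 9 higher at 24 hours (median 0.24) and 17 at 72 hours (median 0.19), where 197 and 1185 of 15097 genes were higher. Between 12 and 24 hours no probe was called by limma, with 1975 at an unadjusted p under 0.05 and a lowest adjusted p of 0.0519. With the probes of a gene averaged, 19 of 15097 genes rose (0.126%) and 1 fell (0.00662%) in that interval.

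**Figure D4:**
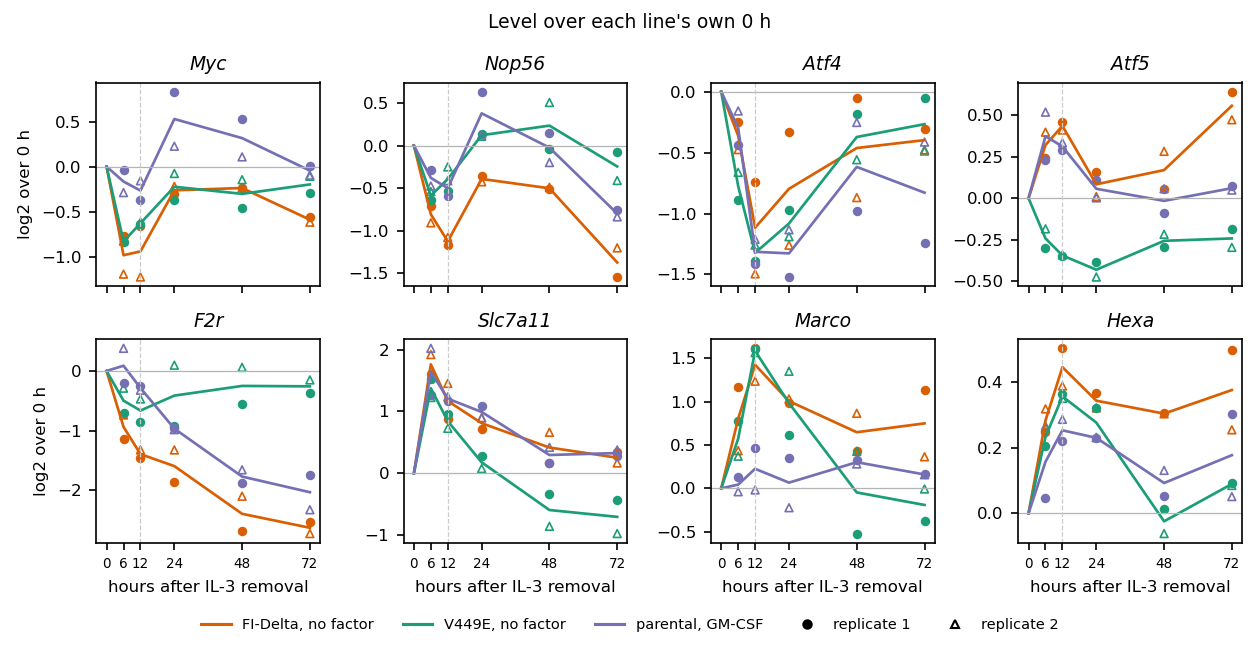
The y axis is the fitted log2 level over the 0 hour RNA of the same line and replicate, and the x axis is hours after IL-3 removal; filled circles are replicate 1, open triangles replicate 2, lines their mean (orange FI-Delta, green V449E, purple parental cells in GM-CSF), and the dashed line marks 12 hours. In FI-Delta cells Slc7a11 is highest at 6 hours (1.76) and F2r falls to -2.63 at 72 hours, and at 12 hours Atf5 is above 0 in FI-Delta and below 0 in V449E.

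The other arms give the same interval after IL-3 removal under another signal. Against their own 0 hours, V449E cells had 278 probes called (1.28%) and the GM arm 637 (2.92%). Of the 30 genes named in FI-Delta cells, 20 were called in the same direction in V449E cells and 14 in the GM arm. The values shared arrays that hybridised the lines with each other, and the genes were chosen in FI-Delta cells. The replicate 2 arrays of GM12h, against GM0h and against FI12h, were of print run 2, so print run and replicate cannot be told apart there. The test of the difference between responses called no probe by limma, with 324 at an unadjusted p under 0.05 against V449E cells and 419 against the GM arm. That fit treats the RNA levels as independent, although FI12h shares arrays with V449E12h and with GM12h. With no true difference a share of about 0.05 of the 21797 probes would lie under that unadjusted p. Both counts were below that share, so the p-values look conservative, and a lack of calls does not show that the responses were alike. With only the arrays that set the lines against each other, an alternative added after the data were seen, 1 probe was called against V449E and 2 against the GM arm. That alternative likewise treats dye-swap pairs that share RNAs as independent. The probe called against V449E was Atf5. It was chosen here after its values were seen. Within FI-Delta it rose, as given above. In V449E cells it stood at -0.050 and -0.29 in replicate 1 and at -0.46 and -0.23 in replicate 2, below 0 on every array and not called (-0.35 ± 0.11). On arrays of FI12h against V449E12h it stood at 1.48, 0.82, 0.76 and 0.64, and on those of FI0h against V449E0h at 0.24, 0.061, 0.21 and -0.19. Atf5 was called on these same arrays, so their separation is no further support. The 4 arrays at each time are dye swaps of 2 replicates. The difference between responses was 0.85 ± 0.14 on these arrays (limma adjusted p = 0.0138, over 21797 probes). In the fit over all arrays it was 0.78 ± 0.16 and missed the threshold (limma adjusted p = 0.819, over 15097 genes with probes averaged). These adjustments are over unlike sets. Over probes the fit of all arrays did not call Atf5 either. Atf4 itself was at -1.12 in FI-Delta, -1.32 in V449E and -1.31 in the GM arm. The probes called against the GM arm were 1700013G23Rik (1.02 ± 0.18) and 1 without a symbol (-0.58 ± 0.10). For the other genes the lines differed in value without a passed test. Nop56 was at -1.12 in FI-Delta, -0.39 in V449E and -0.50 in the GM arm, F2r at -1.40, -0.66 and -0.29, and Fasn at -0.94, -0.68 and -0.17. Marco was at 1.43, 1.58 and 0.23. The difference of F2r from the GM arm was -1.11 ± 0.33, and that of Marco 1.20 ± 0.47. Slc7a11 was called in all 3 arms, at 1.17, 0.84 and 1.21, as were, among others, Atf4, Psat1, Ptpn9, Tmtc2, Cebpd and Klhl24. The ribosome biogenesis list had 4 of 42 members lower in V449E (median -0.20) and 11 in the GM arm (median -0.24), against 26 in FI-Delta, where 0.894%, 2.27% and 4.34% of all genes were lower. The lysosome list had 4 and 5 of 39 higher (medians 0.24 and 0.22), against 14, where 0.775%, 1.58% and 2.45% of all genes were higher. The Atf4 list had 12 lower in each of the other arms, against 14. Tests of the difference called no member of these 3 lists. As those p-values look conservative, the counts are shown neither to differ nor to be alike.

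**Figure D5:**
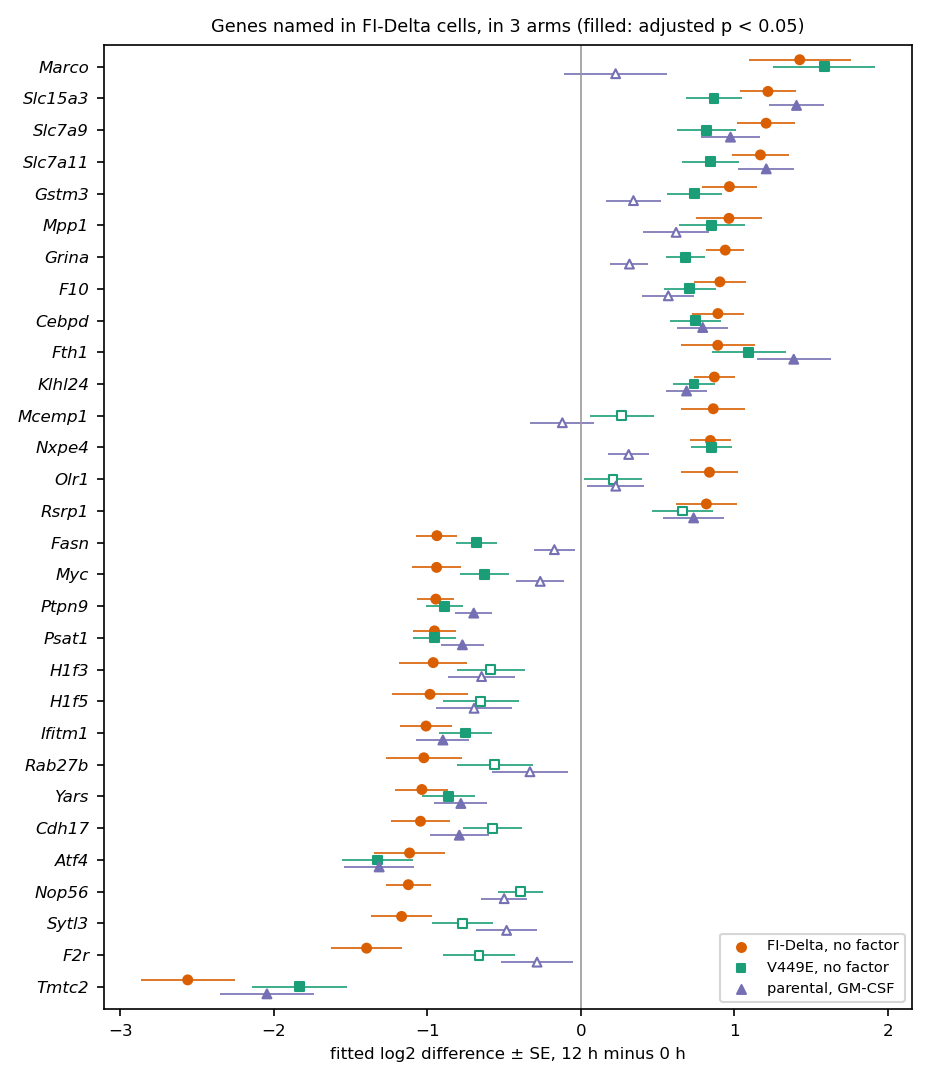
The x axis is the fitted log2 difference of 12 hours minus 0 hours ± SE for the 30 genes named in FI-Delta cells (rows), in FI-Delta (orange circles), V449E (green squares) and parental cells in GM-CSF (purple triangles); filled symbols have an adjusted p below 0.05. Filled symbols number 20 in V449E and 14 in the GM arm, and Marco and F2r lie nearer 0 in the GM arm (0.23 and -0.29) than in FI-Delta (1.43 and -1.40).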

How the data were processed

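Spotted 2-colour arrays compared total RNAs of mouse FDB1 cells (58 dye-swap pairs, 18 conditions, 2 replicates each). Values were used as log2 ratios as deposited. Per the labels, the authors normalised the arrays and put both print runs in 1 spot order, and the submitters' processing notes name limma. The log base, direction, background correction and normalisation method are not given in the sources used here. The table held 23040 probes. Of these 1243 controls were left out and 21797 tested, 16651 with 1 gene symbol, 137 with several and 5009 with none. 4 list entries matched no symbol.

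Signs were turned to 12 over 0 hours and dye swaps averaged. Least squares within each replicate gave 36 RNA levels, which limma 3.58.1 (lmFit, eBayes, R 4.3.3; Benjamini-Hochberg) tested with replicate number as a block (17 residual and 5.99 prior degrees of freedom). Every array holds RNAs of 1 replicate number, so the numbers pair the samples by hybridisation. The fitted differences followed the direct dye-swap means with r = 0.947 and slope 0.839 across probes. Lists (32, probes of a symbol averaged to 15097 genes) are described by counts and medians. On simulated data for the 12 against 0 hour comparison, 200 of 21797 probes were changed. The fit recovered 74% of the changes sized 0.5 and 94% of those sized 1, with 0.592% of 169 calls false. The simulation drew probes independently and gave all RNAs of a probe the same variance. It thus lacks the wider spread of replicate 2 and deviations shared by many probes of 1 RNA. Its share of false calls need not hold for the real calls. Alternatives were the fit without block, direct arrays only, indirect arrays only, print run 1 only, arrays scaled to 1 median absolute deviation, weighted levels, symbol averages, single dye orders and omission of each RNA. No genome coordinates come from the arrays; promoter sequences and their coordinates are RefSeq's (GRCm38.p6; 27025 genes).

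Genes named are the 15 highest and 15 lowest called in FI-Delta with 1 sign on all 4 arrays, the 5 members of smallest p in each list, the 6 highest and 6 lowest of other contrasts, and receptor chains; other called list members and Atf5 in V449E cells were added after their values were seen, as were members not called that are named for their role. Members, lists and tests were chosen with earlier results of these data known.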

Additional observations from a re-analysis of the deposited data

Results flagged for a closer look

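Atf5, a transcription factor related to Atf4, moved in opposite directions at 12 hours in both replicates of the mutant lines. Its fitted difference from 0 hours was 0.46 and 0.41 in FI-Delta cells and -0.35 and -0.34 in V449E cells. The fall in V449E cells was itself not called. The difference between the responses was 0.78 ± 0.16 (SE) and did not pass after adjustment over all genes (limma adjusted p = 0.819). The arrays that set the lines against each other, a fit added after the data were seen, gave 0.85 ± 0.14 (limma adjusted p = 0.0138, here adjusted over all probes). That fit treats dye-swap pairs that share RNAs as independent. Its cause was not tested.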

How the results depend on the processing

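No called result turned its direction under the alternatives run. The 1102 probes called between 12 and 0 hours became 1981 on the direct arrays, 458 with arrays scaled to 1 spread and 2554 with weighted levels, and 143 to 696 with 1 RNA left out. Without the replicate block they were 1357, all 1102 among them. Levels are already centred within each replicate, so that fit keeps the pairing and the differences, and only the estimate of spread changes. Between 12 and 6 hours the 85 called became 143 without the replicate block, 19 on direct arrays, 42 with scaling, 131 with weights, 190 with print run 1, and 0 to 258 with 1 RNA left out. Between 24 and 12 hours the 0 called became 31 without the replicate block, 21 with weights, 20 with print run 1, 20 with symbols averaged, and 2 to 73 with 1 RNA left out. The response difference against V449E called 0 and against the GM arm 0; the across-line arrays called 1 and 2, and omission of 1 RNA called 0 for V449E and 0 to 3 for the GM arm (Amy2, Tex55 and 1810053B23Rik without the replicate 2 RNA of GM 12 hours). Among the 32 lists, the number called without the block moved by over 1.5 times for the macrophage list alone (3 to 6). The causes were not tested, beyond the estimate of spread for the block and the fewer RNAs of an omission. List counts moved that far in many settings: with scaling in 18 lists, all to fewer; with weights in 10, all to more, among them lipid genes and G2/M genes lower (18 each); on print run 1 in 1 to more and 8 to fewer; on the direct arrays in 3 to more and 1 to fewer; on the indirect arrays in 2 to more and 6 to fewer. Omission of 1 RNA left fewer in 13 to 26 lists. Signal over background was not used here.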

Other observations

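The replication-dependent histone genes, a group chosen after its values were seen, were lower in replicate 2 than in replicate 1. Of 9 measured genes 5 were called lower and 0 higher at 12 hours (limma, median -0.64), against 4.34% of all genes lower. The direct-array medians were -0.26 in replicate 1 and -0.75 in replicate 2, and 7 of the 9 genes were lower in replicate 2. Larger values in replicate 2 were not particular to histones. Of the 30 named genes 21 had the larger dye-swap average there, and its arrays had the wider spread over all probes. H1f1 stood at -0.54, 0.10, -1.65 and -1.07 on the arrays, and H3c7 at -0.71, 0.40, -1.39 and -0.83, both highest with the 12 hour RNA of replicate 1 in Cy3. H1f2 was at -0.003 ± 0.20 and H2bc22 at -0.050 ± 0.11. H1f3 was at -0.96 in FI-Delta, -0.59 in V449E and -0.65 in the GM arm. Ms4a3 and Dusp6, described above, were also below 0 on both arrays of replicate 2 and above 0 on both of replicate 1, and Lcn2 was high in replicate 1 alone. The cause was not tested.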
